A study of Mus musculus with 2 samples.

Results

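The replication histone genes are the 67 genes of the mouse Hist1h, Hist2h, Hist3h and Hist4h clusters, chosen by symbol alone from the 32285 genes in the files. They were measured by droplet single-cell RNA sequencing, with the 10x Genomics 3′ v3.1 kit, in retinas dissociated at postnatal day 6 and enriched for endothelial cells on CD31 beads. There were 2 libraries. The control library came from Alk1f/f mice, which carry the floxed alleles without Cre. The library labelled Alk1 ECKO came from Alk1f/f Cdh5 CreERT2 mice, in which the Cdh5 promoter, active in endothelium, drives a Cre that needs tamoxifen. Whether and when tamoxifen was given, and how many pups went into each library, is not given in the sources used here. With 1 library per genotype there was no replicate, so no test was run, differences are between 2 single libraries, and the 95% intervals cover counting error alone.

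Replication histone genes encode the proteins that package newly made DNA. Pairs of H2A, H2B, H3 and H4 form the core of the nucleosome, and H1, the linker histone, binds the DNA between nucleosomes. Their transcription and the stability of their mRNAs are coupled to DNA synthesis in S phase. Most of these mRNAs have no poly(A) tail and end just after a short stem-loop, which is bound by the protein SLBP. The 3′ kit primes on runs of A, so it captures these mRNAs only in part. Levels are given as CPM, the UMIs of a gene for each 1000000 UMIs of the same cells, where a UMI is 1 captured molecule counted near its 3′ end, not scaled by transcript length. A member that yields more CPM than another need not be the more abundant transcript, so an order of members below is an order of captured UMIs only.

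Of the 67 genes, 54 belong to the Hist1 cluster on chromosome 13, 10 to the Hist2 cluster on chromosome 3, 2 to Hist3 on chromosome 11 and 1 to Hist4 on chromosome 6. By product there were 6 H1, 18 H2A, 18 H2B, 12 H3 and 13 H4 genes. In the retained cells 41 members had at least 200 UMIs, 22 had between 1 and 199, and 4 (Hist1h2ba, Hist1h2aa, Hist1h2bq and Hist2h2aa2) had none. Members held 178590 of 106036934 UMIs (0.168%). The linker histone genes Hist1h1e (32422 UMIs) and Hist1h1b (29298 UMIs) together held 34.6% of these, and the 4 leading members held 52.0%. The annotation gave 1 exon for 63 of the 67 genes. Positions of leading members not listed elsewhere are chr13:23738808-23740367 for Hist1h1c, chr13:23684199-23692908 for Hist1h2bc and chr11:58954685-58956830 for Hist3h2a, all on the plus strand of mm10.

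The annotated transcripts of 44 members held the histone stem-loop after the coding end, in 6 versions of 16 bases. The commonest version occurred in 26 members. The windows below end at the last base of the stem-loop and are printed 5′ to 3′ on the gene's strand (mm10, GENCODE vM21), with the stem-loop in capitals. They show the 6 versions, in members that the results turn on and in Hist1h4j for the version that no such member has, and the bases just before the stem-loop, where runs of a differ.
Hist1h1e, chr13:23621782-23621811, minus strand: cccaacaacccaaaGGCTCTTTTCAGAGCC
Hist1h2ap, chr13:21833029-21833058, minus strand: agaaaaaaaaaaaaGGCTCTTTTCAGAGCC
Hist1h2ae, chr13:23570668-23570697, minus strand: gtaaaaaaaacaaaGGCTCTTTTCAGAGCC
Hist3h2ba, chr11:58949335-58949364, plus strand: gcccccaacccaaaGGCTCTTTTCAGAGCC
Hist1h4d, chr13:23581936-23581965, plus strand: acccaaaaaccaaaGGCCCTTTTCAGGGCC
Hist1h3c, chr13:23745047-23745076, minus strand: gctatttaaaaaaaGGCTCTTTTAAGAGCC
Hist1h4i, chr13:22040966-22040995, minus strand: caatgctacttaaaGGCCCTTTTTAGGGCC
Hist2h2ac, chr3:96220418-96220447, minus strand: cacgaatccaaaaaGGCTCTTTTTAGAGCC
Hist1h4j, chr13:21735423-21735452, plus strand: tatatttccctaaaGGTCCTTTTCAGGACC
The first 4 share 1 stem-loop although they encode H1, H2A and H2B. Hist1h2ap, with the largest number of H2A UMIs, has a run of 12 a directly before it. The gene model of Hist1h1b (chr13:21779883-21780625, minus strand, 1 exon) stops at its coding end and that of Hist1h1a 48 bases later, and no stem-loop lies in those bases.

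Members also differed in how far the annotated transcript runs past the coding end. It ran 1209 bases in Hist1h1e (chr13:23620629-23622558), 880 in Hist1h1c, 822 in Hist1h4d, 742 in Hist1h2bc and 213 in Hist3h2ba. It ran 199 bases in Hist1h2ae, 114 in Hist1h3c, 94 in Hist2h2ac, 93 in Hist1h4h and 57 in Hist1h2ap. At least 200 bases, called a long tail here, were annotated for 25 members, of which 18 had at least 200 UMIs. The other 42, of which 23 had at least 200 UMIs, are called short-tailed. A poly(A) signal (AATAAA or ATTAAA) in the last 50 annotated bases was found in 15 members. The lengths describe the annotation and not the ends of the captured molecules.

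RefSeq promoters (GRCm38.p6, 250 bases before to 50 after the start) were matched for 61 members, 1 of them with 2 entries. On either strand, CCAAT occurred in 53 of these 62 promoters (85.5%) and in 37.4% of all 32851 promoters of that length. It was present in every matched H1, H2A, H2B and H3 promoter and in 25% of the H4 promoters. TATAAA occurred in 56.5% against 13.6% of all promoters. The octamer ATTTGCAT occurred in 22.6% against 1.74%, in 41.2% of H2A and 41.2% of H2B promoters and in no H1, H3 or H4 promoter. A match describes these letters and does not show that a factor binds. The promoters below belong to an H1, an H2A and an H4 gene that were high in cycling cells, and to the H2B gene with the most UMIs in bipolar cells. Capitals mark the 3 motifs on either strand.
Hist1h1b, chr13:21780576-21780875, minus strand: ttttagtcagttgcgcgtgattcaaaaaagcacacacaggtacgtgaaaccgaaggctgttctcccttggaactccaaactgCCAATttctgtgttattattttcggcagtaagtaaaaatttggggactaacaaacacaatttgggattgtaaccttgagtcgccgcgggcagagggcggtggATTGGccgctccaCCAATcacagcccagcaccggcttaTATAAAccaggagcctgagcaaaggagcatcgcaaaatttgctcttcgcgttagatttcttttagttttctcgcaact
Hist1h2ae, chr13:23571171-23571470, minus strand: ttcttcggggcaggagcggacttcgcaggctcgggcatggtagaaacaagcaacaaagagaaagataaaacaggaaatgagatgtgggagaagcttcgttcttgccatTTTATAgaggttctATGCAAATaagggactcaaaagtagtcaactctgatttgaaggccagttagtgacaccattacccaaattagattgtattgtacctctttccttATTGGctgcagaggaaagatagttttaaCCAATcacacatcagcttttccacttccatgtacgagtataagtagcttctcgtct
Hist1h4d, chr13:23581318-23581617, plus strand: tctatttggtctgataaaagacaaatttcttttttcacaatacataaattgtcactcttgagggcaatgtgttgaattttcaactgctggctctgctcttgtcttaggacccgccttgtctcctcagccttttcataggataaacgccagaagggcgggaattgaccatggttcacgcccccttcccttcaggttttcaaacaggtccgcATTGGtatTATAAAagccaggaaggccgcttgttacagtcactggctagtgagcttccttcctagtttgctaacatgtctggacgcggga
Hist3h2ba, chr11:58948661-58948960, plus strand: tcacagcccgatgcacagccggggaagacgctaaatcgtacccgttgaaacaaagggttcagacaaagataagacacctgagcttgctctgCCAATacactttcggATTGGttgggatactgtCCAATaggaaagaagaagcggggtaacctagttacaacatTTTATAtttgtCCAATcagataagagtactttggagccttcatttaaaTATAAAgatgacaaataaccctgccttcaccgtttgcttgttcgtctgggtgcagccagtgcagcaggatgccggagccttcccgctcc
The window of Hist1h2ae lies almost wholly on that of the H2B gene Hist1h2bg, which starts 176 bases away on the other strand.

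Barcodes numbered 8739 in the control library, with 54800465 UMIs in all, and 5308 in the Alk1 ECKO library, with 62728605 UMIs. The 2 libraries shared 20 barcodes. After the cell filters and doublet removal 7409 and 4093 cells were retained. They were clustered without the histone and cell cycle genes and named by markers, so each class is named for its likeness to a cell type. Endothelial-like cells numbered 313 in control and 1363 in Alk1 ECKO, and their summed endothelial markers were 9800 and 8065 CPM. Sums of other types' markers in them also differed, at 61.4 and 393 CPM for mural, 3530 and 4515 for Müller glia and 213 and 360 for erythroid markers, with 13 of 13, 15 and 16 of 17 and 7 of 7 markers detected, and 68.0 and 76.3 CPM for microglial markers. A further cluster of 1215 Alk1 ECKO and 0 control cells with endothelial markers and a median mitochondrial share of 0.404% was set aside. Acvrl1, the gene for Alk1, stood at 115.0 CPM (1219 UMIs) in control endothelial cells and at 115.6 CPM (5207 UMIs) in those of the Alk1 ECKO library. The sources used here do not give the deleted exons, and a 3′ count may lie outside them, so this value neither supports nor goes against the label.

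A cell was called cycling with at least 1 UMI each of Mki67 and Top2a, genes expressed in proliferating cells, and non-cycling with none of either. Of the endothelial cells 102 (32.6%) were cycling in control and 417 (30.6%) in Alk1 ECKO, and 149 and 674 were non-cycling. The remaining 62 and 272 cells had UMIs of only 1 of the 2 genes. Cycling cells were deeper, with a median of 50010 and 58150 UMIs against 11090 and 9107 in non-cycling cells. Depth enters the call, since a deeper cell is more likely to show a UMI of both genes, and its part in the differences was not tested apart from the thinned values given below.

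Replication histones were higher in cycling than in non-cycling endothelial cells in both libraries. In control cells they summed to 3597 CPM (3550 to 3645) in cycling and 717 CPM (684 to 751) in non-cycling cells, a 5.02-fold difference. In Alk1 ECKO cells they summed to 2242 CPM (2224 to 2260) and 407 CPM (395 to 420), a 5.50-fold difference. On the log2 scale the differences were 2.33 (2.26 to 2.40) and 2.46 (2.42 to 2.50), while the median over all measured genes was -0.02 in control and -0.11 in Alk1 ECKO. Cells with UMIs of only 1 of the 2 genes lay near the non-cycling level, with 622 CPM in the control and 536 CPM in the Alk1 ECKO library.

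Among single cells the histone level was spread widely. The median cycling cell held 2119 CPM in the control and 1163 CPM in the Alk1 ECKO library, against 774 and 386 CPM in non-cycling cells. More than 5000 CPM was reached by 30 of 102 cycling control cells (29.4%, 20.8 to 39.2) and by 71 of 417 cycling Alk1 ECKO cells (17.03%, 13.5 to 21.0). Of the non-cycling cells, 0 of 149 in control (which allows up to 2.01%, with 3 counts as the limit) and 10 of 674 in Alk1 ECKO (1.48%) did so. Most Mki67 and Top2a positive endothelial cells thus lay below that level in both libraries.

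**Figure D1:**
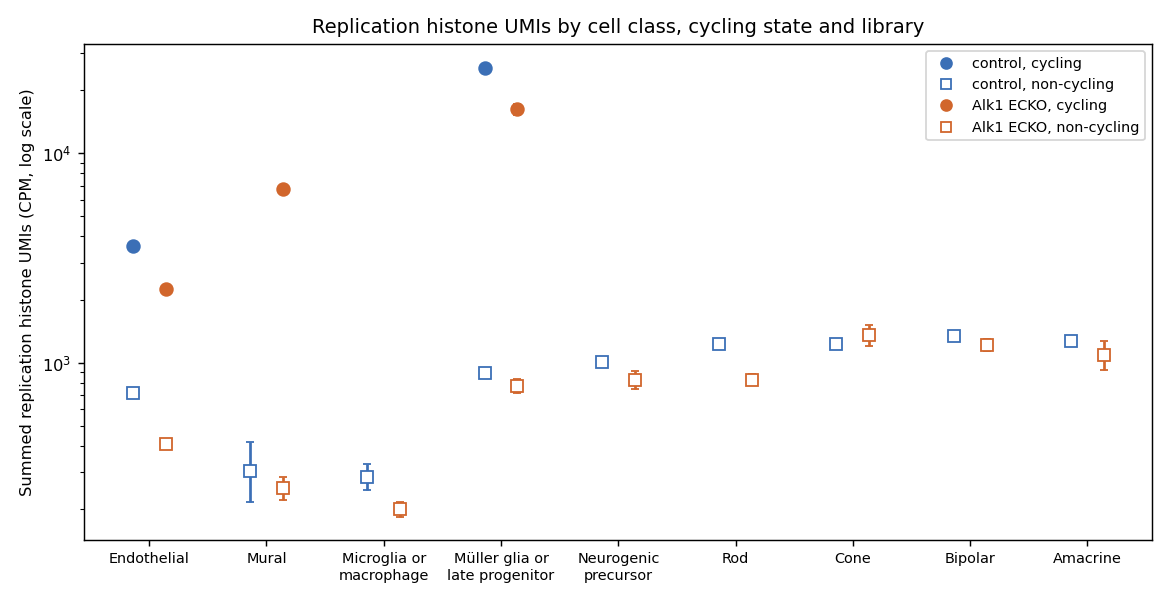
Summed CPM of the 67 replication histone genes (log axis) in each marker-named cell class, with cycling cells as filled circles and non-cycling cells as open squares for each library; bars are 95% Poisson intervals. The cycling endothelial points (3597 and 2242 CPM) lie above the non-cycling ones (717 and 407 CPM) and below the cycling control progenitors (25570 CPM).

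Of the 67 members, 40 in control and 50 in Alk1 ECKO had at least 30 UMIs over cycling and non-cycling endothelial cells together and were taken as measured. Cycling cells held more UMIs, so many members passed this minimum through the cycling cells alone, where they were high, as did Hist1h2ab, Hist1h3b and Hist1h3c in control. At least 1.5-fold higher in cycling cells were 34 of 40 in control, where 15.0% of all measured genes were, and 46 of 50 in Alk1 ECKO, where 8.93% were. At least 1.5-fold lower were 0 of 40 in control (13.7% of all genes) and 1 of 50 in Alk1 ECKO (11.5%). When 30 UMIs were asked of the non-cycling cells alone, 6 of 9 members were higher in control (9.38% of all such genes) and 17 of 19 in Alk1 ECKO (5.73%), and 0 and 1 were lower (13.0% and 10.4%), with median log2 differences of 1.08 and 1.76. By product, with the minimum over both states together, 4 of 5 H1, 11 of 13 H2A, 7 of 9 H2B, 7 of 7 H3 and 5 of 6 H4 genes were higher in control. In Alk1 ECKO 5 of 5, 13 of 14, 11 of 12, 9 of 9 and 8 of 10 were. These counts are partly set by that minimum.

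The linker histone genes differed widely in their cycling to non-cycling ratio. Hist1h1b had 1006 CPM (6145 UMIs) in cycling and 8.19 CPM (20 UMIs) in non-cycling control cells, and 510 CPM and 11.9 CPM in Alk1 ECKO cells. These are log2 differences of 6.94 (6.31 to 7.65) and 5.42 (5.17 to 5.68). Hist1h1b was thus low in the non-cycling endothelial cells of both libraries. Hist1h1e, in contrast, had 539 CPM in cycling and 247 CPM in non-cycling control cells, and 250 and 117 CPM in Alk1 ECKO cells. Its log2 differences were 1.13 (1.0 to 1.25) and 1.10 (1.01 to 1.18), so it gave the most histone UMIs in non-cycling endothelial cells while still higher in cycling ones. Hist1h1c had 113 CPM and 104 CPM in control, a log2 difference of 0.11 (-0.10 to 0.33) whose interval includes 0, and 59.7 and 38.2 CPM in Alk1 ECKO, a log2 difference of 0.65. Hist1h1a (88.5 against 5.32 CPM in control) and Hist1h1d (76.8 against 6.96 CPM) lay between, with log2 differences of 4.06 and 3.46 in control and 3.45 and 2.56 in Alk1 ECKO. Linker histones held 50.7% of the histone UMIs of cycling cells in control and 39.8% in Alk1 ECKO.

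H2A genes followed. Hist1h2ap had 377 CPM in cycling and 5.73 CPM (14 UMIs) in non-cycling control cells, and 470 and 11.7 CPM in Alk1 ECKO cells, with log2 differences of 6.04 and 5.32. It shares 92.2% of its 100-base windows with another member, so its reads may have been split or dropped in the authors' counting and its level is uncertain. Hist1h2ae had 300 against 12.3 CPM in control and 219 against 10.4 CPM in Alk1 ECKO, log2 differences of 4.61 and 4.39. Hist2h2ac, of the chromosome 3 cluster, kept a higher non-cycling level, with 154 against 34.8 CPM and 71.9 against 14.2 CPM, log2 differences of 2.14 and 2.33. Hist1h2ab had 249 UMIs in cycling and 0 in non-cycling control cells, at least 33.2-fold higher with a floor of 3 counts over the group.

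Hist3h2a alone among the measured members was lower in cycling cells in both libraries. It had 8.84 against 9.83 CPM in control, a log2 difference of -0.15 (-0.87 to 0.61), and 6.86 against 10.9 CPM in Alk1 ECKO, a log2 difference of -0.67 (-1.01 to -0.32). The control interval includes 0. This H2A gene lies beside the H2B gene Hist3h2ba on chromosome 11 and has 1700 annotated bases after its coding end. It overlaps Trim17 on the same strand, so reads of the 2 genes cannot be told apart there. This limits every Hist3h2a level given here.

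Among H2B genes Hist1h2bc gave the most UMIs in cycling endothelial cells, with 58.3 CPM in cycling and 38.9 CPM in non-cycling control cells and 63.2 and 48.9 CPM in Alk1 ECKO cells, so its log2 differences were only 0.58 (0.25 to 0.92) and 0.37 (0.23 to 0.51). Hist1h2bj, in contrast, had 42.1 CPM against 0.82 CPM (2 UMIs) in control and 29.0 against 2.61 CPM in Alk1 ECKO, log2 differences of 5.68 and 3.48. Hist1h2bm had 23.6 against 1.23 CPM in control and 14.2 against 0.47 CPM in Alk1 ECKO. The non-cycling levels of Hist1h2bj and Hist1h2bm rest on 2 to 28 UMIs.

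Among H3 genes Hist1h3c led, with 108 CPM (660 UMIs) in cycling and 0.41 CPM (1 UMI) in non-cycling control cells and 63.4 against 2.79 CPM (30 UMIs) in Alk1 ECKO cells. The log2 differences were 8.04 (5.56 to 13.35) and 4.503 (3.98 to 5.08). Hist1h3b had 92 UMIs against 0 in control, at least 12.2-fold higher, and 243 against 1 in Alk1 ECKO. Hist1h3e kept a non-cycling level, with 48.9 against 17.6 CPM and 30.9 against 9.13 CPM. All measured H3 genes were higher in cycling cells in both libraries, over a wide range of sizes. Hist1h3b in both libraries and Hist1h3c in control passed the UMI minimum through the cycling cells, where they were high. That all were higher is thus partly set by the minimum, and no conclusion about H3 genes is drawn from it.

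Among measured members, H4 genes had the smallest median difference of the 5 products, 1.14 in control and 1.51 in Alk1 ECKO on the log2 scale. Many members passed the UMI minimum through the cycling cells alone, where they were high, so this order may be partly set by the minimum. The products were not compared with the minimum asked of non-cycling cells alone, so no conclusion about H4 genes is drawn from the order. Hist1h4d had 199 CPM in cycling and 93.8 CPM in non-cycling control cells and 105 and 54.6 CPM in Alk1 ECKO cells, log2 differences of 1.08 and 0.94. Hist1h4h had 86.6 against 46.3 CPM and 48.4 against 21.6 CPM, log2 differences of 0.90 and 1.16. Hist1h4i, at 27.0 against 6.96 CPM and 34.1 against 7.08 CPM, had 1.96 and 2.27. Hist4h4, the single member on chromosome 6, had 3.44 against 4.91 CPM in control and 2.17 against 1.86 CPM in Alk1 ECKO, with intervals that include 0 in both. H4 genes held 10.2% of the histone UMIs of cycling and 23.5% of those of non-cycling control cells, and 9.41% and 22.8% in Alk1 ECKO.

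**Figure D2:**
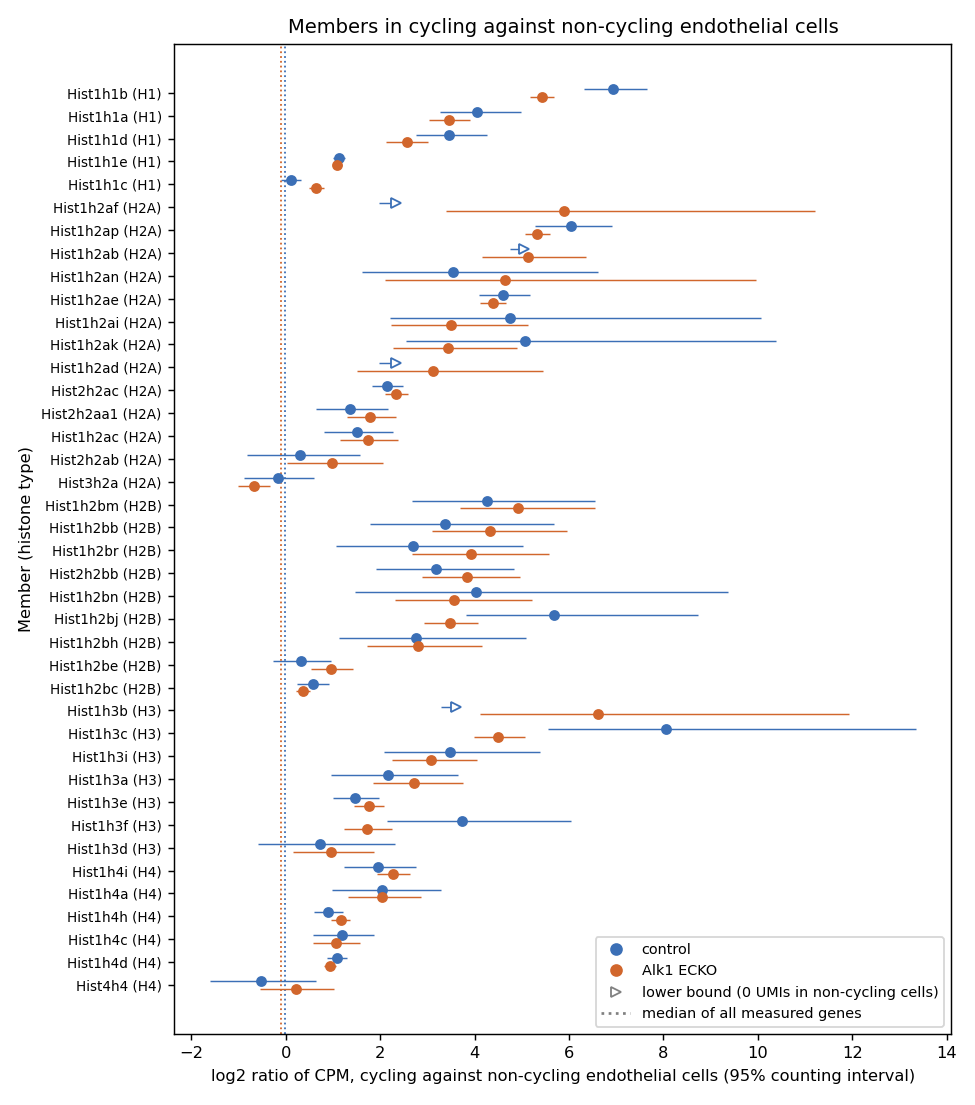
Log2 difference in CPM between cycling and non-cycling endothelial cells for the 40 members measured in both libraries (control blue, Alk1 ECKO orange), with 95% counting intervals; open triangles are lower bounds and dotted lines the medians over all genes. Hist1h1b (6.94 and 5.42) lies at the high end and Hist3h2a (-0.15 and -0.67) at the low end.

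The members differed by the length of the annotated tail. Over all measured genes, 15.0% in control and 8.93% in Alk1 ECKO were at least 1.5-fold higher in cycling cells. Of the long-tailed genes 11 of 16 in control and 15 of 19 in Alk1 ECKO were, with median log2 differences of 1.16 and 1.10. Of the short-tailed genes 23 of 24 and 31 of 31 were higher, with medians of 3.58 and 3.48, but short-tailed genes passed the minimum mostly through cycling cells. With 30 UMIs in non-cycling cells alone, the medians were 0.83 over 6 long-tailed and 2.14 over 3 short-tailed genes in control, and 1.06 over 11 and 3.92 over 8 in Alk1 ECKO. Long-tailed members held 32.9% of the histone UMIs of cycling cells in control and 28.3% in Alk1 ECKO, against 80.2% and 76.9% in non-cycling cells. Whether tail length or another property of these genes goes with the difference was not tested.

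Of 13 pairs of members that start within 1000 bases of each other on opposite strands, 12 joined an H2A with an H2B gene. The counts of the partners were unequal in the pairs with the most UMIs. Hist1h2ap had 377 and 470 CPM in control and Alk1 ECKO cycling endothelial cells, while Hist1h2br, which starts 236 bases away, had 8.02 and 7.09 CPM. Hist1h2ae had 300 and 219 CPM and Hist1h2bg, 176 bases away, 2.13 and 1.84 CPM. Hist2h2ac had 154 and 71.9 CPM and Hist2h2be, 239 bases away, 1.47 and 0.64 CPM. The H2B gene gave more UMIs in Hist1h2bj (42.1 and 29.0 CPM) over Hist1h2ag (2.45 and 2.36 CPM) and in Hist1h2bc (58.3 and 63.2 CPM) over Hist1h2ac (22.1 and 8.10 CPM). Overlap and shared sequence limit such values. 23 members share over 50% of their 100-base windows with another member, 7 overlap another gene on the same strand and 21 one on the other strand. Hist1h2be overlaps Hist1h1e on the same strand, so their reads cannot be told apart there.

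To compare shares of cells across depths, each cell was thinned to 2000 UMIs. At least 1 Hist1h1b UMI was then found in 46.5% of cycling and 1.40% of non-cycling control endothelial cells, and in 38.1% and 3.78% in Alk1 ECKO. Before thinning the shares were 73.5% and 8.05%, and 68.6% and 8.90%. In rods, which do not divide, the thinned share was 0.436% in control and 0 of 278 cells in Alk1 ECKO, which allows up to 1.08% with the same limit of 3 counts. In microglia it was 0 of 50 and 0 of 190 cells, which allows up to 6% and 1.58%. Hist1h2ap, for which the thinned share was 37.6% and 43.0% in cycling endothelial cells, was found in 1.40% and 4.14% of non-cycling ones. Hist1h1e was found in 58.4% and 35.2% of cycling and 42.7% and 23.6% of non-cycling endothelial cells. Hist1h1e thus separated the states less than Hist1h1b did at equal depth. The cells left out as shallower than 2000 UMIs were 1 cycling and 6 non-cycling in control and 8 and 119 in Alk1 ECKO.

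Cycling cells were then ordered by the share of G2/M genes in their summed S and G2/M gene UMIs. They were split at 2 cut values common to both libraries but set separately for each class, at 0.50 and 0.73 in endothelial cells. Parts of the same name are thus different ranges of the share in different classes. In control endothelial cells the histones summed to 3661 CPM (3583 to 3739) at the S end (40 cells), 3393 CPM (3319 to 3469) in the middle (26 cells) and 4009 CPM (3904 to 4117) at the G2/M end (32 cells). In Alk1 ECKO cells the values were 2054 CPM (2024 to 2085; 115 cells), 2771 CPM (2740 to 2803; 134 cells) and 1706 CPM (1676 to 1737; 126 cells). By these sums the order differed between the libraries, with the middle lowest in control and highest in Alk1 ECKO. Per-cell medians were 1466, 2491 and 2178 CPM in control and 1284, 1789 and 737 CPM in Alk1 ECKO. By median the middle was thus highest in both libraries, and the control sums and medians do not have the same order. The part lowest by median was the S end in control and the G2/M end in Alk1 ECKO. The classes are ranges of a score, and 20 control and 104 Alk1 ECKO cells lay within 0.05 of a cut. Hist1h1b had 1136, 972 and 908 CPM along the order in control and 468, 667 and 335 CPM in Alk1 ECKO. Hist1h2ap had 348, 388 and 433 CPM in control and 457, 592 and 314 CPM in Alk1 ECKO.

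**Figure D3:**
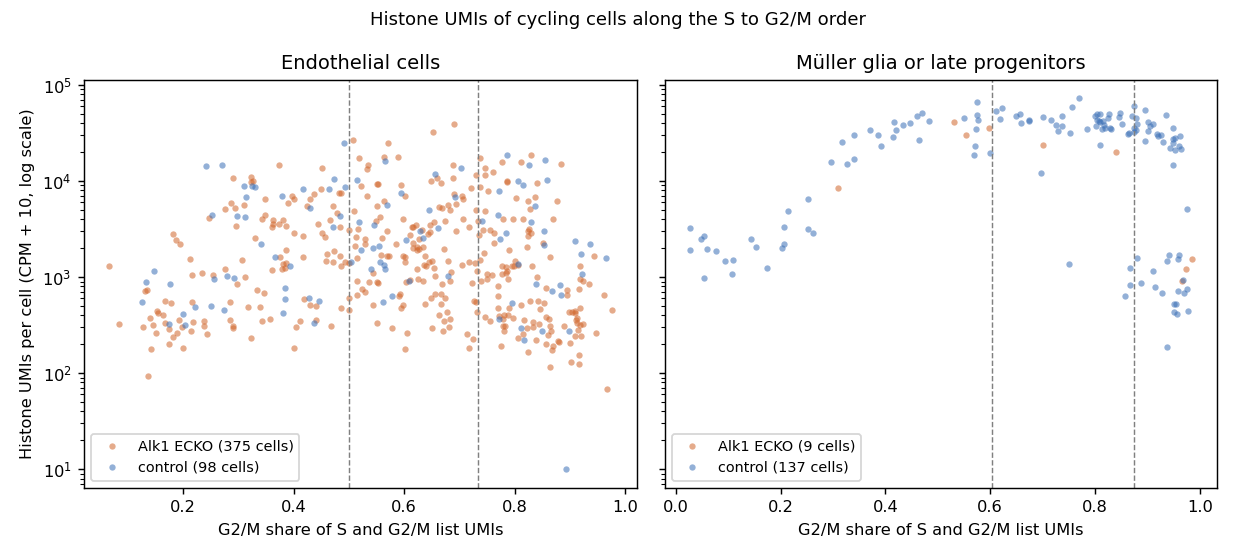
Summed histone CPM of each cycling cell (plus 10, log axis) against its share of G2/M UMIs, for endothelial cells (98 control and 375 Alk1 ECKO cells) and progenitors (137 and 9 cells); dashed lines mark the cuts between the 3 parts. Control progenitors of the middle part lie highest (median 41970 CPM), and endothelial cells of every part spread over more than a factor of 10.

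Over single cycling endothelial cells, the gene whose CPM followed the summed histone CPM most closely was Rrm2, a subunit of the enzyme that makes deoxynucleotides. Its Pearson correlation was 0.67 over 102 control and 0.64 over 417 Alk1 ECKO cells, the highest mean of 8849 genes. Tk1, which makes thymidine monophosphate, had 0.59 and 0.60, and Top2a, which also defines the cells, 0.65 and 0.51. Pclaf, Clspn, Aurkb, Esco2, Fbxo5, Lig1 and Dnajc9 completed the first 10. Slbp, the stem-loop binding protein, had 0.32 and 0.42 (rank 63) and Ccnb1, a G2/M cyclin, -0.01 and 0.01. All points share their cell's depth, and cells of 1 library are not replicates, so these are descriptions with no test.

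Members followed one another to different degrees. The correlation of a member's CPM with the sum of the others was summarised over the 32 members with at least 200 UMIs in cycling endothelial cells. Its median was 0.64 in control and 0.57 in Alk1 ECKO. Members with fewer UMIs there are not covered by these medians. The correlation was 0.90 and 0.87 for Hist1h2ae and 0.88 and 0.89 for Hist1h1b. Hist3h2a (-0.08 and -0.01) and Hist1h2bc (-0.01 and 0.04) did not follow the rest. Hist3h2a had 237 UMIs in these cells. Hist1h2bc had 2041, close to the 2283 of Hist1h1c, which was at 0.69 and 0.56.

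The histone level of cycling cells differed between classes. Mural-like cells, a class of pericytes and vascular smooth muscle, included 40 cycling and 88 non-cycling cells in Alk1 ECKO but 1 and 10 in control. In Alk1 ECKO they summed to 6718 CPM (6563 to 6876) and 252 CPM (222 to 286), a 26.6-fold difference. Of the 23 members measured over both states together, 22 were higher in cycling cells, where 13.0% of all genes were. Hist1h2bc (log2 -0.65, -1.55 to 0.22) was the 1 member counted as lower, where 17.2% were. Cycling cells held 7114 and non-cycling cells 247 histone UMIs, so members could pass the minimum through the cycling cells, where they were high. The count of higher members is thus partly set by the minimum, and none was asked of non-cycling mural cells alone. In cycling mural cells Hist1h1b led with 2166 CPM, followed by Hist1h2ap with 971 CPM and Hist1h1e with 890 CPM. In non-cycling ones Hist1h1e (45.0 CPM), Hist1h4d (38.8 CPM) and Hist1h2bc (29.6 CPM) led. Mural cells with over 5000 CPM numbered 26 of 40. Along the S to G2/M order, with cuts at 0.56 and 0.86, they had 8026, 8804 and 3433 CPM. The G2/M end was lowest, as in Alk1 ECKO endothelial cells, where the cuts lay lower.

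Müller glia or late progenitor-like cells, called progenitors for short, had the highest histone level among classes with at least 10 cycling cells. The short name does not tell glia from progenitors. The larger of its clusters (619 control and 162 Alk1 ECKO cells) was led by Crym, Rlbp1 and Slc1a3. The smaller (117 and 8 cells) was led by Spc25, Ccnd1 and Hes1. Most non-cycling cells thus lay in the larger cluster, so cell type and cycling state may be mixed below, which was not tested. In control 142 cycling cells summed to 25570 CPM (25270 to 25870), or 2.56% of their UMIs, and 523 non-cycling cells to 888 CPM (857 to 920), a 28.8-fold difference. In Alk1 ECKO 10 cycling cells had 16200 CPM and 150 non-cycling cells 774 CPM. Of the 46 members measured over both states in control, 44 were higher in cycling cells (16.2% of all genes). Hist3h2a (log2 -0.98, -1.99 to -0.09) was the 1 member counted as lower (22.8%). Cycling cells held 27614 and non-cycling cells 3126 histone UMIs, so members could pass the minimum through the cycling cells, where they were high. The count of higher members is thus partly set by the minimum, and none was asked of non-cycling progenitors alone. In cycling control progenitors Hist1h1b had 5133 CPM, Hist1h1e 3590 CPM, Hist1h2ae 2470 CPM, Hist1h2ap 1793 CPM and Hist1h3c 1474 CPM. Hist3h2ba was lower in them than in non-cycling progenitors, with a log2 difference of -0.29 (-0.58 to -0.02). Non-cycling progenitors were led by Hist1h1e (268 CPM), Hist3h2ba (150 CPM) and Hist1h4d (125 CPM) in control and by Hist3h2ba (219 CPM), Hist1h1e (169 CPM) and Hist1h4d (99.3 CPM) in Alk1 ECKO. The middle of the order stood out here, with 39960 CPM against 20830 CPM at the S end and 18200 CPM at the G2/M end.
Mki67 and Top2a, by which cycling cells were called, also differed between classes. In cycling endothelial cells Mki67 had 344 CPM (control) and 182 CPM (Alk1 ECKO), and it had 546 CPM in Alk1 ECKO mural cells and 1465 CPM in control progenitors. Top2a had 407, 258, 765 and 1963 CPM in the same cells. Deeper endothelial cells can pass the call with a lower CPM of either mRNA, and the median depth was 28100 UMIs in cycling mural cells and 7410 UMIs in cycling control progenitors. The part of depth in the order of classes was not tested.

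Microglia were mostly non-cycling and had low histone sums. In 50 control and 191 Alk1 ECKO non-cycling cells they had 285 CPM (246 to 329) and 200 CPM (183 to 218). Hist1h2bc led with 110 and 91.7 CPM, followed by Hist1h1c with 50.6 and 38.7 CPM, and Hist1h1e had 24.5 and 13.6 CPM. Microglia thus differed from endothelial cells in their leading member. In the 4 cycling Alk1 ECKO microglia the sum was 1445 CPM, led by Hist1h1b (406 CPM, 32 UMIs) and Hist1h2ap (292 CPM).

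Non-cycling neurons and neurogenic precursors had more histone CPM than non-cycling endothelial cells. The sums in control and Alk1 ECKO were 1230 and 830 CPM in rods, 1231 and 1350 CPM in cones, 1336 and 1216 CPM in bipolar cells, 1274 and 1085 CPM in amacrine cells and 1002 and 829 CPM in neurogenic precursors. Astrocyte-like cells had 1183 and 798 CPM. These sums consisted mainly of long-tailed members, which held 89.8% of the histone UMIs of rods in both libraries and 89.9% and 92.7% in bipolar cells. Rods were led by Hist1h1e (510 and 354 CPM), Hist1h1c (272 and 152 CPM) and Hist1h4d (81.4 and 51.1 CPM).
Bipolar cells were led by the H2B gene Hist3h2ba (632 and 634 CPM), with Hist1h1e (202 and 157 CPM) and Hist3h2a (161 and 162 CPM) behind it. Hist3h2ba also led in amacrine cells (295 and 419 CPM), before Hist1h1e (281 and 160 CPM) and Hist1h4d (183 and 140 CPM). In cones Hist1h1e had 394 and 353 CPM, Hist3h2ba 304 and 475 CPM and Hist1h1c 133 and 135 CPM. In neurogenic precursors Hist1h1e had 245 and 148 CPM, Hist3h2ba 232 and 256 CPM and Hist1h4h 90.2 and 81.9 CPM. Hist3h2ba was thus first in the Alk1 ECKO and second in the control library in cones and neurogenic precursors, as in non-cycling progenitors. In astrocyte-like cells Hist1h1e had 278 and 155 CPM, Hist3h2ba 203 and 186 CPM, Hist1h4d 139 and 77.3 CPM and Hist1h2bc 78.9 and 119 CPM. In rods Hist3h2ba had 40.6 and 37.7 CPM. After thinning, 67.4% of control and 70.1% of Alk1 ECKO bipolar cells had a Hist3h2ba UMI. Of the cycling endothelial cells 0 of 101 and 0 of 409 did, with 3 counts as the limit of each. Before thinning, cycling endothelial cells of both libraries together held 19 Hist3h2ba UMIs. The captured histone mRNA of bipolar cells was thus a different mixture from that of cycling endothelial cells.

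**Figure D4:**
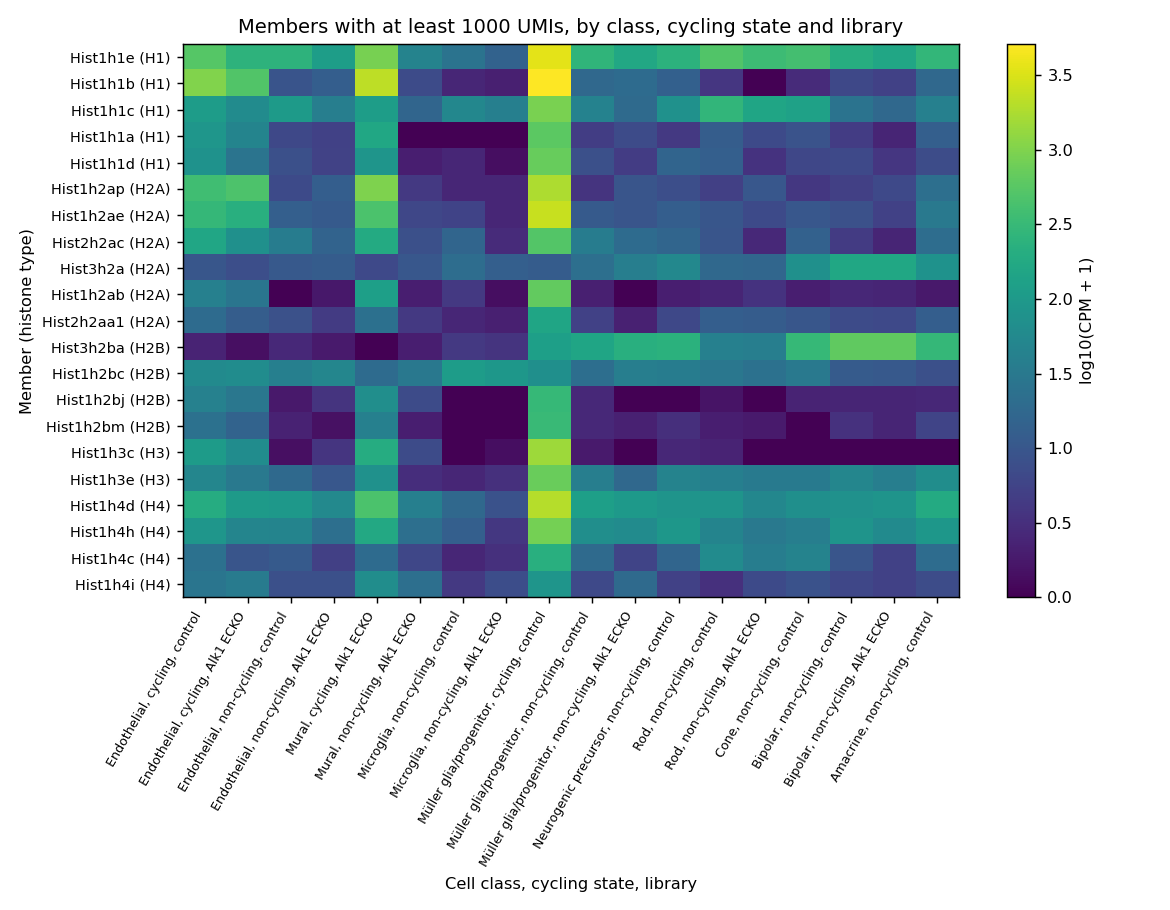
Heat map of log10(CPM + 1) for the 21 members with at least 1000 UMIs (rows) in each class, state and library (columns). Hist1h1b and Hist1h2ap are high in cycling cells of several classes and much lower in non-cycling ones. Hist3h2ba is high in bipolar, amacrine and cone cells, lower in rods and lowest in endothelial cells among these classes.

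The Alk1 ECKO library had less histone CPM than the control library in endothelial cells of both states. In cycling cells the sum was 2242 against 3597 CPM, 1.60-fold lower and a log2 difference of -0.68 (-0.70 to -0.66), beside a median of -0.23 over all measured genes. In non-cycling cells it was 407 against 717 CPM, 1.76-fold lower and a log2 difference of -0.82 (-0.90 to -0.74), beside a median of -0.12. Of the 51 members measured in cycling cells 36 were at least 1.5-fold lower (21.9% of all genes) and 1 was higher (7.02%), with a median of -0.73, and 47 of the 51 were below 0. In non-cycling cells 12 of the 22 measured were lower (18.4%) and 4 higher (8.37%), with a median of -0.72. Of these 22 members, measured in both states, 12 were lower in both. The share of all genes lower in both states was not calculated, so this overlap is not read as a result about the members. As a mean over cells rather than a sum of UMIs, the non-cycling log2 difference was -0.23.

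Classes outside the endothelium also differed between the libraries. The summed log2 difference, Alk1 ECKO against control, was -0.57 (-0.66 to -0.47) in non-cycling rods and -0.14 (-0.24 to -0.03) in bipolar cells. It was -0.20 (-0.32 to -0.07) in non-cycling Müller glia or late progenitor-like cells, called progenitors for short. The medians over all genes were -0.15 in rods, -0.16 in progenitors and -0.16 in bipolar cells. At least 1.5-fold lower were 13 of 28 measured members in rods (21.0% of all genes), 5 of 13 in progenitors (21.1%) and 3 of 14 in bipolar cells (22.1%). At least 1.5-fold higher were 2 of 28 (5.36%), 3 of 13 (3.77%) and 0 of 14 (6.56%). Relative to the median of all genes, the differences were -0.46 in cycling and -0.69 in non-cycling endothelial cells, -0.42 in rods, -0.03 in progenitors and 0.02 in bipolar cells. Whether the endothelial and rod values differ was not tested. With 1 library per genotype, genotype and library cannot be told apart.

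The cells compared also differed in makeup. The genes that set the call were lower in cycling cells of the Alk1 ECKO library too, with 182 against 344 CPM for Mki67 and 258 against 407 CPM for Top2a, and their part in the histone difference was not tested. Of the ordered cycling endothelial cells 40.8% lay at the S end in control and 30.7% in Alk1 ECKO, and the log2 difference was -0.83 at the S end, -0.29 in the middle and -1.23 at the G2/M end, or -0.76 with the 3 parts weighted equally. The deepest endothelial cluster, with Rgs5 and Mgp among its leading genes and a median of 62774.5 UMIs, held 48 of the 417 cycling cells in Alk1 ECKO and 1 of 102 in control. Without it the cycling difference was -0.56. The cluster led by the arterial genes Gja4, Sema3g and Sox17 held 218 of 674 non-cycling cells in Alk1 ECKO and 39 of 149 in control, and without it the non-cycling difference was -1.01. In none of these settings did the sign change.

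Of the measured H1 genes 5 of 5 were at least 1.5-fold lower in cycling cells (21.9% of all genes) and 3 of 5 in non-cycling cells (18.4%). Hist1h1b had 510 CPM in Alk1 ECKO and 1006 CPM in control, a log2 difference of -0.98 (-1.02 to -0.94) in cycling cells, but 11.9 and 8.19 CPM, or 0.54 (-0.14 to 1.30), in non-cycling cells. Hist1h1e had 250 and 539 CPM, a difference of -1.11 (-1.17 to -1.05), and was lower by a like amount in non-cycling cells (117 and 247 CPM, -1.08). Hist1h1d had one of the lowest ratios, with 25.9 and 76.8 CPM and a difference of -1.57 (-1.74 to -1.40). Hist1h1c was at -0.92 in cycling and -1.45 (-1.68 to -1.22) in non-cycling cells. In other classes Hist1h1e was at -0.53 in rods, -0.67 in progenitors and -0.36 in bipolar cells, and Hist1h1c at -0.83 in rods and -1.25 in progenitors, on the log2 scale.

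H2A and H2B genes were less uniform, with 9 of 14 and 5 of 12 lower in cycling cells, where 21.9% of all genes were. Hist1h2an had the lowest ratio, with 2.32 against 9.49 CPM, a difference of -2.03 (-2.57 to -1.49), but it shares 83.3% of its 100-base windows with another member. Hist2h2ac had 71.9 against 154 CPM (-1.10). Hist1h2ae had 219 against 300 CPM, a difference of -0.45 (-0.53 to -0.38). Hist1h2ap differed from these in sign, with 470 against 377 CPM and 0.32 (0.25 to 0.38) in cycling cells, and 11.7 CPM (126 UMIs) against 5.73 CPM (14 UMIs) and 1.03 (0.23 to 1.95) in non-cycling cells. In rods it was also higher, at a log2 difference of 1.16 (0.07 to 2.12), on 11 Alk1 ECKO and 50 control UMIs. Hist1h2bc was close to level, at 0.12 (-0.05 to 0.29) in cycling and 0.33 (0.01 to 0.66) in non-cycling cells. The highest ratio in cycling cells, that of Hist1h2bk (log2 2.00, 0.04 to 5.11), rests on 35 against 2 UMIs.

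Of the H3 and H4 genes 7 of 9 and 10 of 11 were lower in cycling cells, where 21.9% of all genes were. Hist1h3c had 63.4 against 108 CPM (-0.77) there, yet had the highest ratio in non-cycling cells, at 2.77 (0.18 to 8.12) on 30 against 1 UMI. Hist1h2bj (28 against 2 UMIs, 1.67) and Hist1h3f (38 against 3 UMIs, 1.53) followed it with intervals that include 0. The lowest ratios in non-cycling cells were those of Hist1h2ac (-1.68), Hist1h1c (-1.45) and Hist4h4 (-1.40). Hist1h4b, with 115 UMIs in all retained cells, was at -1.54 (-2.45 to -0.59) in cycling cells. Hist1h4d had 105 against 199 CPM (-0.92). Hist1h4i was the exception among H4 genes, at 34.1 against 27.0 CPM and 0.34 (0.10 to 0.59) in cycling cells and at 0.02 in non-cycling cells. It was higher in progenitors, at 1.66 (0.59 to 2.70) on 15 against 20 UMIs. In rods it was at 1.35 (-0.09 to 2.58) on 7 against 28 UMIs, with an interval that includes 0.

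**Figure D5:**
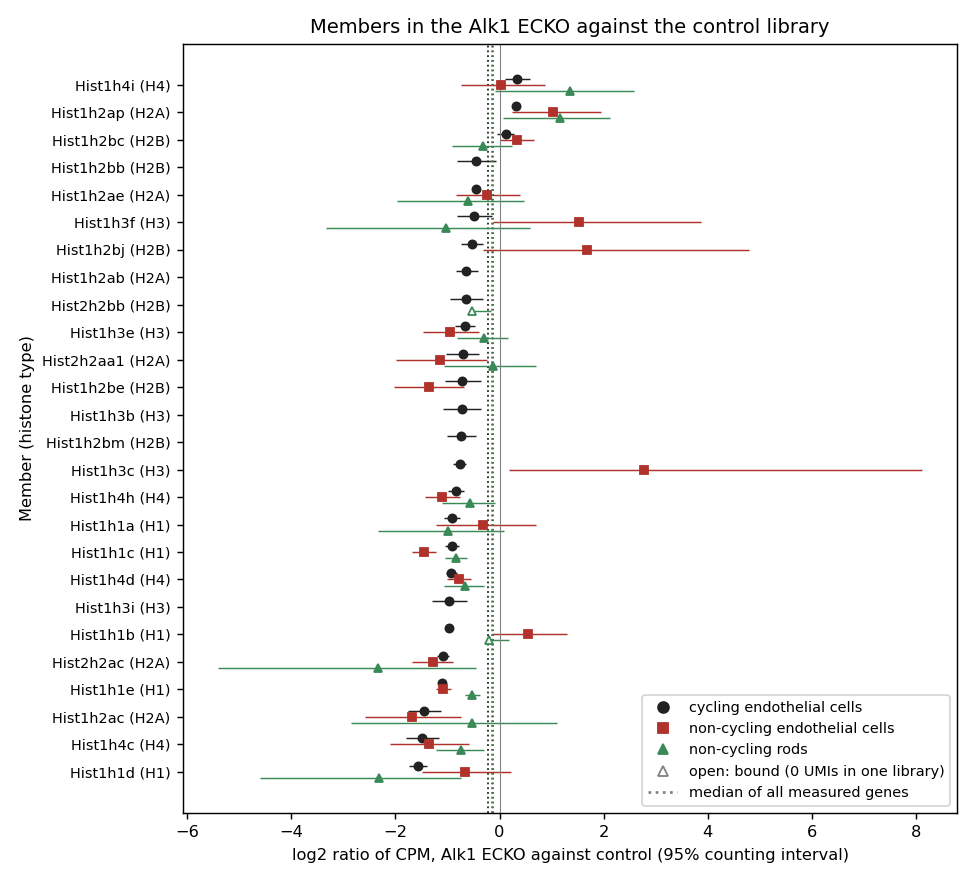
Log2 difference in CPM, Alk1 ECKO against control, for the 26 members with at least 300 UMIs in cycling endothelial cells, in cycling endothelial cells, non-cycling endothelial cells and non-cycling rods, with 95% counting intervals, open markers for bounds and dotted medians over all genes. In cycling endothelial cells most points lie below 0, with Hist1h2ap (0.32) and Hist1h4i (0.34) above it.

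Genes that act around the replication histones were described from lists. Of the S phase genes 34 of 34 and of the G2/M genes 39 of 39 were at least 1.5-fold higher in cycling than in non-cycling endothelial cells in both libraries, with medians of 3.17 and 2.25 and of 5.06 and 4.63 on the log2 scale, where 15.0% of all genes were higher in control and 8.93% in Alk1 ECKO. Mki67 and Top2a, which set the call, are expressed in the same phases, so this is no separate finding. Of the replacement histones, whose genes are expressed outside S phase as well, 6 of 11 in control and 7 of 11 in Alk1 ECKO were higher, with medians of 0.63 and 0.92. Cenpa, the centromeric H3, was at 2.72 and 3.01, H2afx, which is phosphorylated at DNA breaks, at 2.66 and 2.36, and H2afz at 1.52 and 1.45. H3f3a, which encodes a replacement H3, was at -0.29 and -0.21.

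Of the genes for transcription and processing of histone mRNA 9 of 15 in control and 3 of 15 in Alk1 ECKO were higher in cycling cells (15.0% and 8.93% of all genes) and 1 and 0 lower (13.7% and 11.5%), with medians of 0.65 and 0.30. Slbp had 92.3 against 34.8 CPM in control and 79.7 against 41.7 CPM in Alk1 ECKO, log2 differences of 1.41 and 0.93. Eri1, an exonuclease that trims the histone mRNA end, was at 1.61 and 1.19, and Npat, the coactivator of histone gene transcription, at 0.68 and 0.26. Of the histone chaperones and acetyltransferases 14 of 20 and 10 of 20 were higher, with medians of 0.99 and 0.60. Asf1b, an H3-H4 chaperone, was at 5.90 (149 against 1 UMI) and 4.53. Chaf1b, a subunit of the assembly factor CAF-1, was at 3.40 and 2.34, and Nasp, which binds free H3-H4, at 2.04 and 1.54.

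Between the libraries, in cycling endothelial cells, 0 of 11 replacement histone genes passed 1.5-fold, with a median log2 difference of 0.27 for Alk1 ECKO against control. Of the processing genes 4 of 15 were lower, with a median of -0.45, where 21.9% of all genes were lower. This share is near that of all genes, and the 4 were Npat (-1.07), Hinfp (-0.99), a transcription factor of H4 genes, Eri1 (-0.77) and Sympk (-0.75), a scaffold of the cleavage complex. Of the chaperones 6 of 20 were lower (median -0.33), of the S phase genes 14 of 34 (-0.49) and of the G2/M genes 7 of 39 (-0.31), so chaperones and G2/M genes also lay near the share of all genes. In non-cycling cells 14 of 28 measured S phase genes were instead higher in Alk1 ECKO, with a median of 0.56, where 8.37% of all genes were higher. The non-cycling sets included 10 of 674 cells with over 5000 histone CPM in Alk1 ECKO and 0 of 149 in control. The part of such cells in this difference, and in the members higher in non-cycling Alk1 ECKO cells, was not tested. The lists share their control and Alk1 ECKO cells with the members, so they are no independent evidence about them.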

How the data were processed

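The deposited values are raw UMI counts for each gene in each barcode. Per the file headers, Cell Ranger 5.0.1 made them. The submitters' processing notes name FastQC 0.11.9, Cell Ranger 6.1.1 and the mm10 build. Whether intronic or multiply mapped reads were counted is not given in the sources used here.

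Cells were kept with 1000 or more UMIs, 500 or more genes and no more than 10% mitochondrial UMIs (7909 control, 4237 Alk1 ECKO). Scrublet's automatic threshold called 0 and 1 cells, so the highest scores were removed at 0.8% per 1000 cells (500 and 144 cells). Cells of the 2 libraries were jointly clustered, uncorrected for batch, with scanpy 1.11.5, scikit-learn 1.9.0 and leidenalg 0.10.2 (3000 variable genes, 30 components, 15 neighbours, resolution 1.0). Mitochondrial, ribosomal, haemoglobin, sex-linked, member, Mki67, Top2a and listed cell cycle, histone variant, processing and chaperone genes were left out of the clustering. A cluster was named with at least 3 markers of a list among its top 20 genes against the mean of the other clusters or, failing that, against their median if no other list then had 2. A cluster was set aside if its median mitochondrial share lay under 1%, its median doublet score over 0.1, or 2 or more of its top 10 genes marked a class outside its lineage. Both rules were written with the clusters in view. Set aside were 24 control and 1335 Alk1 ECKO cells for the mitochondrial share and 145 and 12 for the doublet score, and 894 and 86 cells stayed unnamed.

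UMIs were summed per class, state and library and divided by all UMIs of those cells (CPM). The 95% intervals were Clopper-Pearson for shares, exact Poisson for sums and exact conditional binomial for ratios (scipy 1.17.1), and a share of 0 is given with 3 counts as its limit. A gene was measured with at least 30 UMIs over the 2 sets compared and counted as higher or lower from a 1.5-fold ratio, on ratios left uncentred. The cell cycle order used cells with at least 20 UMIs of the S and G2/M lists. The ratio calculation was tested on simulated counts. Member positions came from GENCODE vM21 (67 of 67 matched by gene ID) and promoters from RefSeq (66 of 67 genes matched).

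The members and lists were chosen with earlier results of these data known. Members with at least 200 UMIs could be named. Full values were given for the 10 with the highest CPM in cycling endothelial cells, those higher in non-cycling cells in both libraries, the 3 highest and 3 lowest library ratios per state among members with at least 30 UMIs there, and the 3 leading members of each other class. Hist1h2bk and Hist1h4b, under 200 UMIs, were named by the library ratios. Hist1h2bg, Hist1h2ag and Hist1h4j, outside this rule, were named for their position or stem-loop, after their values were seen.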

Additional observations from a re-analysis of the deposited data

How the results depend on the processing

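All values here are log2 differences unless counts are named. Under other settings 60 values stayed close and 50 moved. No log2 difference changed sign. The counts of members, shares of cells and CPM among these values have no sign to change. Calling a cell cycling with 1 UMI of either gene gave 1.99 in control and 2.19 in Alk1 ECKO for cycling against non-cycling endothelial cells, -0.61 for Alk1 ECKO against control in cycling cells, and 1 and 0 lower members. Calling it with 3 UMIs of both genes together gave -0.65 and 1 lower control member, and CPM without mitochondrial, ribosomal and haemoglobin genes gave -0.65. The mean of per-cell CPM gave 1.98 in Alk1 ECKO, -0.57 in cycling and -0.23 in non-cycling cells between libraries, and 2 lower control members. Without doublet removal the cycling difference between libraries was -0.71, with 2 lower control members. With the low-mitochondrial endothelial cluster there were 2 lower Alk1 ECKO members. Cells with at least 3000 UMIs gave 2.58 in Alk1 ECKO and -0.92 between non-cycling cells. Thinning each cell to 5000 UMIs gave 2.75 in Alk1 ECKO, -0.56 and -0.92 between libraries, 12 higher members in control and 20 and 0 lower in Alk1 ECKO, since fewer members then reach 30 UMIs. A gate on 3 of 5 endothelial markers (285 and 1404 cells) gave 2.47 and 2.56, -0.77 between cycling cells, 2 lower Alk1 ECKO members and 2445 and 1499 CPM over all endothelial cells, against 2359 and 1516. With no UMI minimum 5 members were lower in each library. Ordering cells by Pcna against Cenpf gave -0.35 for the S end against the G2/M end in control, where the lists gave -0.13. Thinned to 5000 UMIs, 59.4% and 52.1% of cycling endothelial cells had a Hist1h1b UMI.

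The following settings were added after the data had been seen. Without the deepest endothelial cluster the values were 2.53 in Alk1 ECKO and -0.56 between cycling cells, and without the arterial-led cluster 2.64 and, between non-cycling cells, -1.01, with 0 lower Alk1 ECKO members in either setting. With 30 UMIs asked of the non-cycling cells alone, 6 members were higher in control and 17 in Alk1 ECKO, since fewer were measured. Without Hist1h1b and Hist1h1e the values were 2.15 and 2.41, and -0.47 and -0.73 between libraries. Between cycling cells, the S end, middle and G2/M end gave -0.83, -0.29 and -1.23, and equal weights -0.76. Where a value moved, the cause was not tested. No paired analysis was possible because each genotype had 1 library, and no library could be left out. Capture of mRNAs without a poly(A) tail limits every level, and depth limits the members under 30 UMIs.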
